A study of Drosophila melanogaster with 2 samples.

Results

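Co-chaperone, chaperonin and small heat shock genes, 7 of the 2377 genes that the arrays measured under a symbol of their own, are described here across every spot that carried them. They are the Hsp40 co-chaperone genes DnaJ-1 and Droj2, the BAG co-chaperone gene stv, the chaperonin genes Hsp60B and Hsp60C, CG9920, a gene of the Hsp10 co-chaperonin family, and the small heat shock gene CG7409. They were found by their current symbols in the platform annotation, and all 7 were present, on 15 clones and 30 spots. As a set they were chosen by function and from ratios of this same comparison, which were already known, so their values are given as a description with no test.

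RNA came from whole adult females of the wild-type strain Oregon-R, aged 4 to 10 days, sprayed in a Potter's tower (a device that settles a mist evenly on insects) with 2 mL of 99% ethanol or, as the control, with 2 mL of distilled water. Each RNA extract was made from about 240 flies, and an ethanol extract was hybridised together with a water extract on each of 2 spotted arrays, so there are 2 biological replicates per treatment and n = 2 ratios per spot. Ethanol RNA was labelled with Cy3 and water RNA with Cy5 on array 1, and ethanol RNA with Cy5 and water RNA with Cy3 on array 2. The interval between spray and sampling is 4 h in the series text and 6 h in the label of replicate 1.

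The deposited value of a spot is a signed log ratio of its 2 channels, read here as log2, with no base, direction or normalization stated. A ratio is therefore called positive or negative, and the text does not say in which treatment a gene was higher. Means are first given under a common direction for both arrays, and then with array 2 turned in sign, which is the right reading if the values are Cy5 over Cy3. A ratio carries no expression level, so neither the labelled sex nor the tissues present could be checked from markers, and signal over background is unknown. In whole flies, fewer cells of a type and less RNA per cell cannot be told apart.

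Chaperones bind unfolded proteins and help them reach or regain their native shape. Hsp40 proteins bring clients to Hsp70 and start its ATP cycle through their J domain, and BAG proteins help Hsp70 release nucleotide and client. Hsp60 forms a folding chamber that Hsp10 closes like a lid, and small heat shock proteins hold unfolded clients so that they do not aggregate. Many of these genes are switched on by the heat shock factor when heat or chemicals, ethanol among them, unfold proteins in the cell.

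Of the 7 genes, CG9920 and Hsp60B lay far from 0 on array 1, at -2.19 and -1.09, and both were close to 0 on array 2, at -0.16 and -0.04. DnaJ-1 and CG7409 were moderately negative on both arrays, Hsp60C was moderately positive on both, Droj2 was positive on array 1 alone, and stv was near 0. Over the 7 the array 1 median was -0.26 and the array 2 median -0.08, against 0.0089 and 0.010 for all 2377 genes. Under a common direction, 6 of the 7 had the same sign on both, while 50.7% of all genes did. Of these, 5 were negative on both arrays (24.1% of all genes) and 1, Hsp60C, was positive on both (26.6% of all genes). These counts belong to the values by which the genes were chosen, and they turn with the coding: with array 2 turned in sign only Droj2 kept the same sign on both, against 49.3% of all genes.

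**Figure D1:**
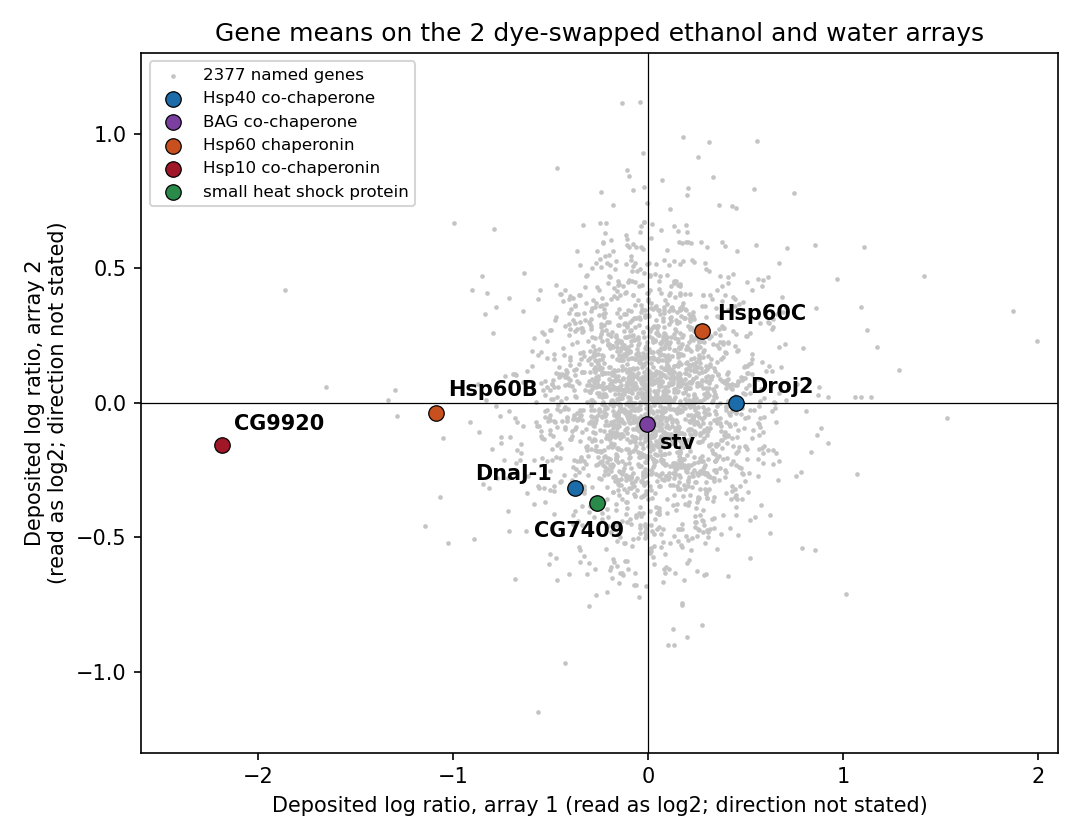
Each grey point is 1 of 2377 named genes and each coloured point 1 of the 7 folding genes, with the deposited log ratio (read as log2) on array 1 along the horizontal axis and on array 2 along the vertical axis. 13 genes lie beyond the axes. CG9920 and Hsp60B stand far to the left and close to the horizontal zero line, and the other 5 genes lie within the cloud.

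The mean ratio of each gene was tested against 0 in limma with Benjamini-Hochberg adjustment over 2377 genes, and 0 genes (0%) passed an adjusted p of 0.05, so none of the 7 did. The count depends on which clones enter: it was 8 of 2365 genes (0.338%), CG9920 among them, without clones holding a spot of more than 3 in size, and 5 of 1536 genes (0.326%), none of the 7 among them, with only clones whose spots lay within 0.5 of each other. The limma p before adjustment was under 0.05 for 136 of the 2377 genes, and for 95 with array 2 turned in sign. If no gene changed, about 0.05 of the genes would still be expected under that threshold. These counts are therefore not read as changed genes. On array 1, 2 of the 7 genes (CG9920 and Hsp60B) were 1.5-fold or more from equality, against 6.14% of all genes. On array 2 none of the 7 reached 1.5-fold, against 4.75% of all genes. None was 1.5-fold or more on both arrays with the same sign, a pattern found in 3 genes (0.126%). Over genes the 2 arrays had a Pearson r of 0.026 and a Spearman rho of 0.0034, given as a description, since genes are not independent replicates.

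DnaJ-1, which encodes the heat-inducible Hsp40 of the fly, was the best sampled of the 7, with 8 clones of 2 adjacent spots each. Only 7 of the 2377 genes, DnaJ-1 included, had at least 8 clones, and 2089 had 1. None of the 8 clones has a sequence accession in the platform annotation, as is the case for 474 of the 2833 named clones, so their identity rests on the symbol alone. Its 16 spots ran from -1.72 to 0.79 on array 1, with a median of -0.032, and from -1.55 to 0.62 on array 2, with a median of -0.32. On array 1, 8 of the 16 spots were negative, and on array 2, 13 of the 16. Over the 5666 spots of all named genes the negative share was 49.0% on array 1 and 49.5% on array 2, so the DnaJ-1 spots leaned to the negative side on array 2 while their signs were evenly divided on array 1.

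The 8 clones of DnaJ-1 did not read alike. On array 1 clone 5 was the lowest at -1.63, with spots of -1.72 and -1.54, and clone 6 stood at -0.88. Clones 2, 3 and 4 stood at -0.37, -0.52 and -0.56. Clones 1, 7 and 8 were positive, at 0.41, 0.40 and 0.15. Each of clones 2, 3 and 4 had 1 spot close to -1 (-1.09, -1.09 and -1.03) and 1 spot much nearer to 0 or above it (0.36, 0.055 and -0.092), so on array 1 their means rest on spots that disagreed.

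On array 2 clone 2 was the lowest at -1.01, the 8th lowest of 2833 named clones. Its spots disagreed, at -0.46 and -1.55, farther apart than in 95.1% of named clones. Clone 3 was next at -0.72, the 22nd lowest. Clones 4, 6, 7 and 8 lay close together, at -0.34, -0.30, -0.32 and -0.46. Clones 1 and 5 were positive, at 0.32 and 0.29. Clone 5, the lowest on array 1, thus had a positive mean on array 2, from spots of 0.62 and -0.04 that differed in sign. Of the 8 clones, 4 were negative on both arrays, 1 was positive on both and 3 had opposite signs.

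**Figure D2:**
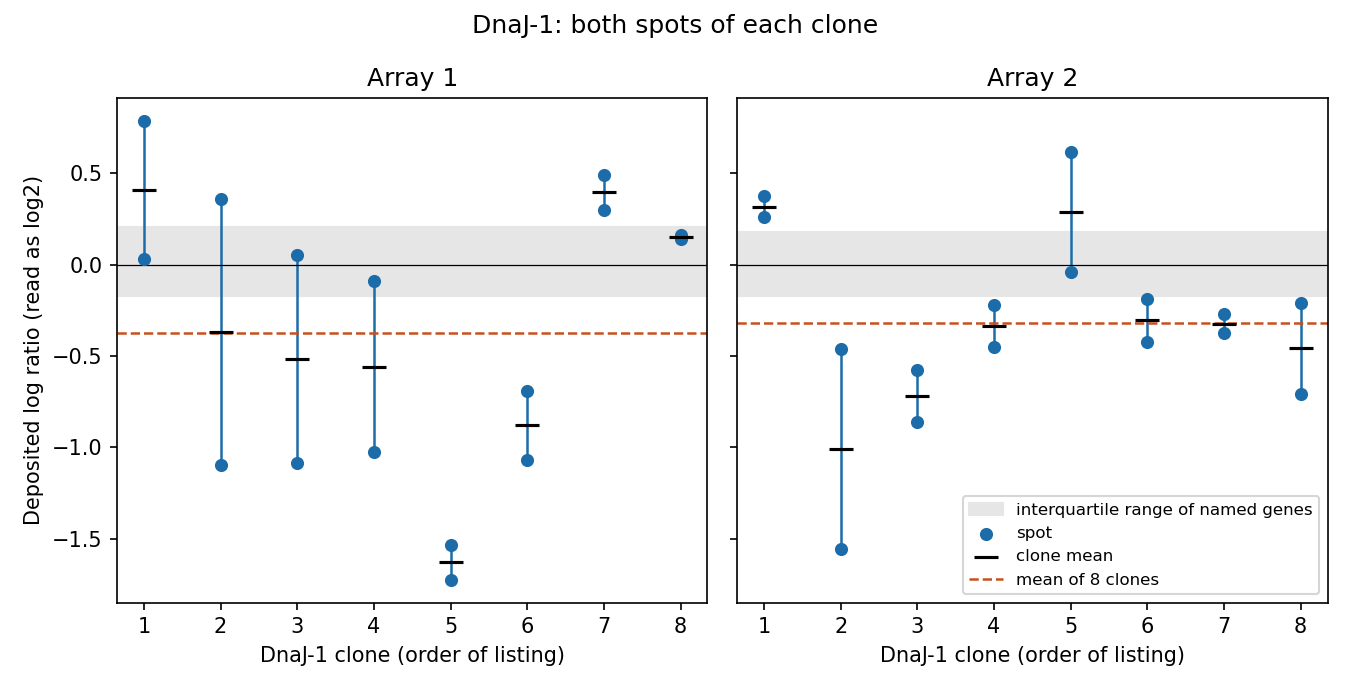
The 2 panels show arrays 1 and 2, with the 8 clones of DnaJ-1 along the horizontal axis and the deposited log ratio (read as log2) on the vertical axis. Blue points are single spots, joined within a clone, black bars are clone means, the dashed line is the mean of the 8 clones and the grey band is the interquartile range of all named genes. The dashed line lies at -0.37 on array 1 and at -0.32 on array 2, while clone means run from -1.63 to 0.41 and from -1.01 to 0.32.

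Averaged over clones, DnaJ-1 was at -0.37 on array 1 and -0.32 on array 2, a mean of -0.35 ± 0.04 (SD over arrays, n = 2). The small SD over arrays does not carry the spread among clones. The SD of the 8 clones was 0.69 on array 1 and 0.45 on array 2. Taken as independent, the clones would give their mean a standard error of 0.25 and 0.16. The clones on an array share the same RNA, so they are not replicates of the treatment. That standard error leaves out the variation between extracts. Among the 72 genes with at least 3 clones the median clone SD was 0.31 on array 1 and 0.27 on array 2, and DnaJ-1 had the 6th highest on each array. Without clone 5 the array 1 value was -0.20 and the array 2 value -0.40, a mean of -0.30. With array 2 turned in sign the mean of all 8 clones was -0.03 ± 0.49 (SD, n = 2), and 0.10 without clone 5. The clones listed beside those of DnaJ-1 were at -0.03 on array 1 and -0.06 on array 2 (means of their medians). On array 1 these medians ran from -0.43 beside clone 6 to 0.17 beside clone 4. With the medians subtracted the DnaJ-1 mean was -0.30 under a common direction.

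In rank, DnaJ-1 was the 223rd lowest of 2377 genes on array 1 and the 269th lowest on array 2, and the 118th lowest by its mean. Turned in sign on array 2, it took place 1037 from the lowest. The genes nearest to it by Euclidean distance over the 2 array values were CG33710 at 0.018, CG5191 at 0.023 and UQCR-11L at 0.031, each measured by 1 clone. A distance over 2 values has little power to separate genes: 21 genes lay within 0.1 of DnaJ-1.

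Droj2 encodes another Hsp40, of the class that pairs the J domain with a zinc-binding region. Its single clone had spots of 0.41 and 0.49 on array 1 and of -0.09 and 0.09 on array 2. The 2 spots were close together on both arrays, with a difference of 0.080 on array 1 and 0.18 on array 2, and the arrays gave different answers: 0.45, the 170th highest of 2377 genes, on array 1, and -0.00067, close to the middle of all genes, on array 2. Its mean was 0.22 ± 0.32 (SD, n = 2) and was also 0.22 with array 2 turned in sign, since array 2 contributed almost nothing. The clones listed on either side of Droj2 had medians of 0.22 and -0.13 on arrays 1 and 2.

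stv (starvin) encodes the fly homologue of the co-chaperone BAG3, which works with Hsp70 and is known for its role in keeping muscle intact. Its spots were at 0.21 and -0.22 on array 1 and at -0.04 and -0.12 on array 2. The clone means of -0.0064 and -0.079 gave -0.04 ± 0.05 (SD, n = 2), and 0.04 ± 0.06 with array 2 turned in sign. The clones listed beside stv had medians of -0.20 and 0.010 on arrays 1 and 2. On array 1, 1.98% of all genes were nearer to 0 than stv, and on array 2, 25.1%. The stv ratio was thus within the ordinary scatter of the arrays whichever way they ran.

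CG9920 gave the largest ratio of the 7. It belongs to the Hsp10 family, whose members cap the Hsp60 chamber. Its 2 spots on array 1 were at -1.85 and -2.52, and its 2 spots on array 2 were at 0.47 and -0.78. Both spots of array 1 were far out on the negative side, while those of array 2 lay on either side of 0 and were 1.26 apart, farther than in 97.2% of named clones.

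Read as log2, the array 1 mean of -2.19 is a 4.56-fold departure from equality and the array 2 mean of -0.16 a 1.11-fold one. On array 1 CG9920 was the 8th lowest of 2377 genes, and the lowest of the 2365 genes left when clones with a spot of more than 3 in size were set aside. On array 2 it was the 636th lowest. With that filter limma called it (adjusted p = 0.0025), although its own value is the same, and with array 2 also turned in sign it did not (adjusted p = 0.69). The 10 clones listed next to it had medians of 0.077 and 0.080 on arrays 1 and 2. Whether clones listed together also lie together on the slide was not checked, and a local effect on the array was not tested. Its mean was -1.17 ± 1.44 (SD, n = 2), and -1.02 ± 1.66 with array 2 turned in sign, so the spread between arrays exceeded the mean under both codings. The other Hsp10 gene of the fly that was measured, CG11267, was negative on both arrays too, at -0.68 and -0.18.

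Hsp60B, a chaperonin gene known for its role in spermatid maturation in the testis, had spots of -0.33 and -1.84 on array 1 and of -0.17 and 0.09 on array 2. The 1.51 between its spots on array 1 was wider than in 99.3% of named clones, and between them lay the clone mean of -1.09, the 15th lowest of 2377 genes. On array 2 its mean was -0.04. Over both arrays it was at -0.56 ± 0.74 (SD, n = 2), and at -0.53 ± 0.80 with array 2 turned in sign. The clones listed beside Hsp60B had medians of -0.20 on array 1 and 0.0064 on array 2, and with these subtracted its mean was -0.47.

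Hsp60C, a related chaperonin gene known for roles in tracheal development and in the male germ line, had 2 clones, both without an accession in the annotation. Clone 1 had spots of 0.14 and -0.08 on array 1 and of 0.33 and 0.98 on array 2. Clone 2 had spots of 0.65 and 0.41 on array 1 and of -0.10 and -0.14 on array 2. The positive signal came from clone 2 on array 1 and from clone 1 on array 2.

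The gene means of Hsp60C, 0.28 on array 1 and 0.27 on array 2, were almost equal and gave 0.27 ± 0.0064 (SD, n = 2). The clones behind them differed by 0.50 on array 1 and by 0.77 on array 2, in opposite order, so that SD understates the scatter of the measurement. With array 2 turned in sign the mean was 0.0045 ± 0.39. The clones listed beside those of Hsp60C were on the same side of 0, at 0.12 on array 1 and 0.17 on array 2 (means of their medians), and with these medians subtracted its mean was 0.12. The third Hsp60 gene measured, Hsp60D, was at 0.36 on array 1 and 0.11 on array 2. Chaperonin and Hsp40 family members share sequence, and cross-hybridisation between them was not tested, so it is uncertain which gene each of these clones reports.

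**Figure D3:**
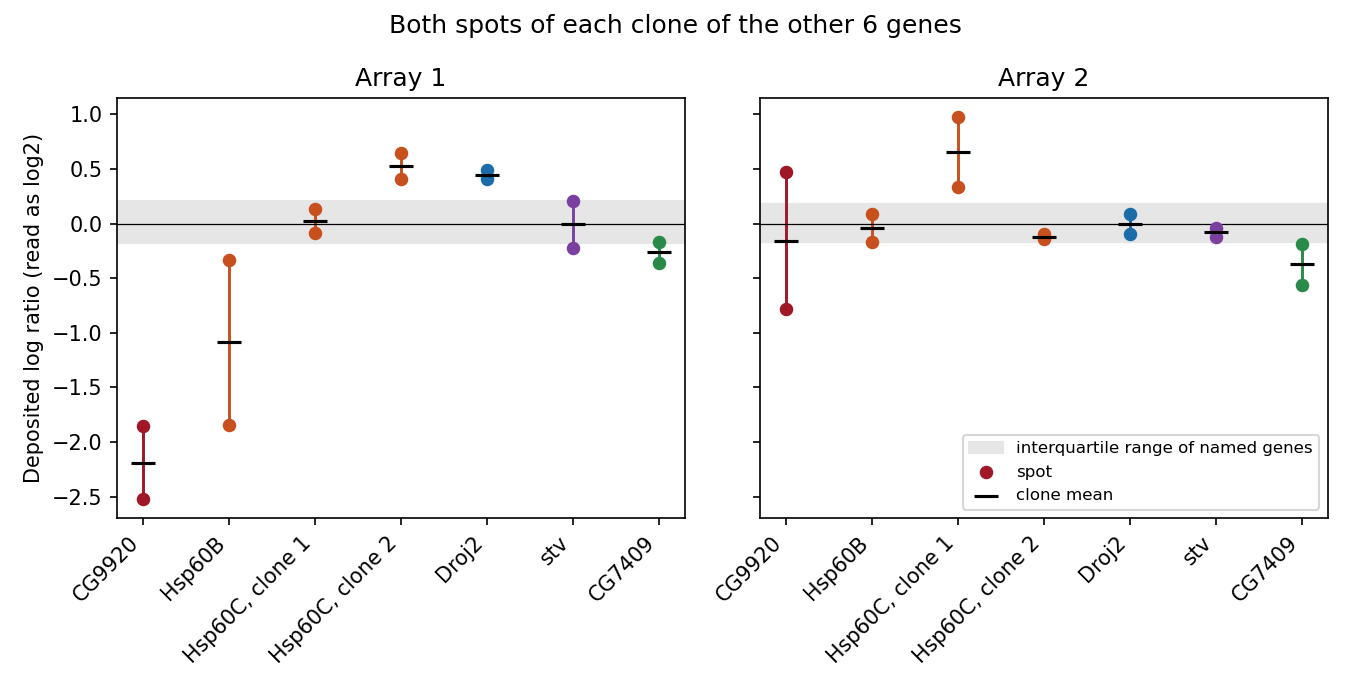
The 2 panels show arrays 1 and 2, with each clone of the 6 genes other than DnaJ-1 along the horizontal axis and the deposited log ratio (read as log2) on the vertical axis. Coloured points are single spots, black bars are clone means and the grey band is the interquartile range of all named genes. Both CG9920 spots lie below -1.8 on array 1 and on either side of 0 on array 2, and the clones of Hsp60C change places between the arrays.

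Hsp60B and Hsp60C have known roles in the male germ line, which need not be their only ones. The flies were females, so beside Hsp60B and Hsp60C the marker genes of male glands and testis were read. Of 36 such genes 5 were measured, with ratios from -0.59 to 0.66 on array 1 (median 0.16, 2 of 5 negative) and from -0.45 to 0.44 on array 2 (median 0.24, 1 of 5 negative). They were Acp36DE at 0.66 and 0.33, betaTub85D at 0.31 and 0.072, dj at 0.16 and 0.44, Mst84B at -0.38 and -0.45, and soti at -0.59 and 0.24, on arrays 1 and 2 in turn. None was as low on array 1 as the Hsp60B clone mean of -1.09. That mean rests on spots that disagreed, and 1 of them, at -0.33, was above soti and Mst84B. Of 18 markers of ovary and female fat body, only yl was measured, at -0.09 and -0.18. The part of these tissues in the ratios of Hsp60B and Hsp60C was not tested.

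CG7409 encodes a small heat shock protein with an alpha-crystallin domain. Its spots were at -0.17 and -0.36 on array 1 and at -0.56 and -0.18 on array 2, and all 4 were negative. Its means of -0.26 and -0.37 gave -0.32 ± 0.08 (SD, n = 2), the 148th lowest mean of 2377 genes. With array 2 turned in sign the mean was 0.06 ± 0.45. It was the only 1 of the 7 genes whose spots were all negative on both arrays. The clones listed beside it had medians of 0.25 on array 1 and 0.080 on array 2, on the other side of 0, and with these subtracted its mean was -0.48. Another small heat shock gene that was measured, CG4461, was at 0.04 and 0.12 on arrays 1 and 2.

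The coding of array 2 split the 7 genes into those whose mean it moved and those whose mean it did not. CG9920, Hsp60B and Droj2 took nearly all of their mean from array 1 and kept it under both codings. DnaJ-1, CG7409 and Hsp60C had array values of like size, and their means were near 0 when array 2 was turned. The median of the 7 means was -0.32 under a common direction and 0.0045 with array 2 turned, against 0.0066 and 0.0023 for all genes. Each gene therefore either rested on 1 array or depended on a direction that the sources used here do not state, except stv, which lay near 0 throughout.

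**Figure D4:**
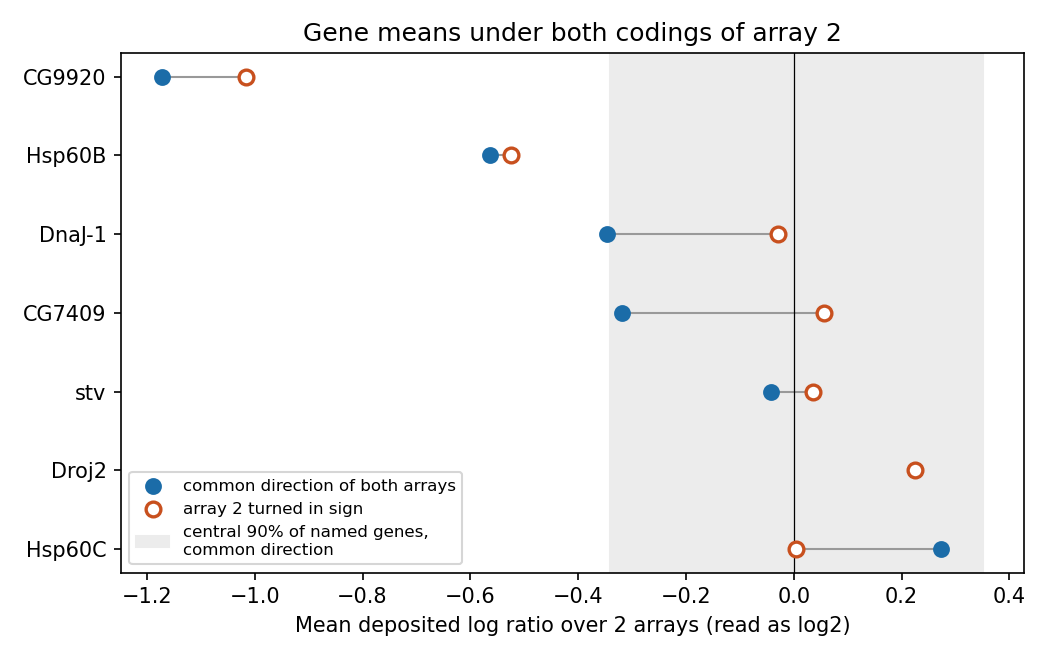
Each row is 1 gene, with its mean deposited log ratio over the 2 arrays (read as log2) on the horizontal axis. Filled points give both arrays a common direction, open points have array 2 turned in sign, and the grey band runs from -0.34 to 0.35 and holds the central 90% of named genes. CG9920 (-1.17 and -1.02) and Hsp60B (-0.56 and -0.53) stay outside the band under both codings, DnaJ-1 (-0.35) lies at its edge under the first, and the other values lie inside it.

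The repeatability of the spots set how far these values can be read. Over the 2833 clones of named genes the 2 spots of a clone typically differed by 0.17 on array 1 and by 0.33 on array 2 (medians). For the 15 clones of the 7 genes the medians were 0.38 and 0.26. On array 1, 6 of the 15 clones had spots more than 0.5 apart (40.0%, against 13.0% of named clones), namely 4 clones of DnaJ-1 and the single clones of CG9920 and Hsp60B. On array 2 it was 4 of the 15 (26.7%, against 31.3%). Of the 15 clones, 7 had spots within 0.5 of each other on both arrays (46.7%, against 60.6%), and neither CG9920 nor Hsp60B had such a clone.

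**Figure D5:**
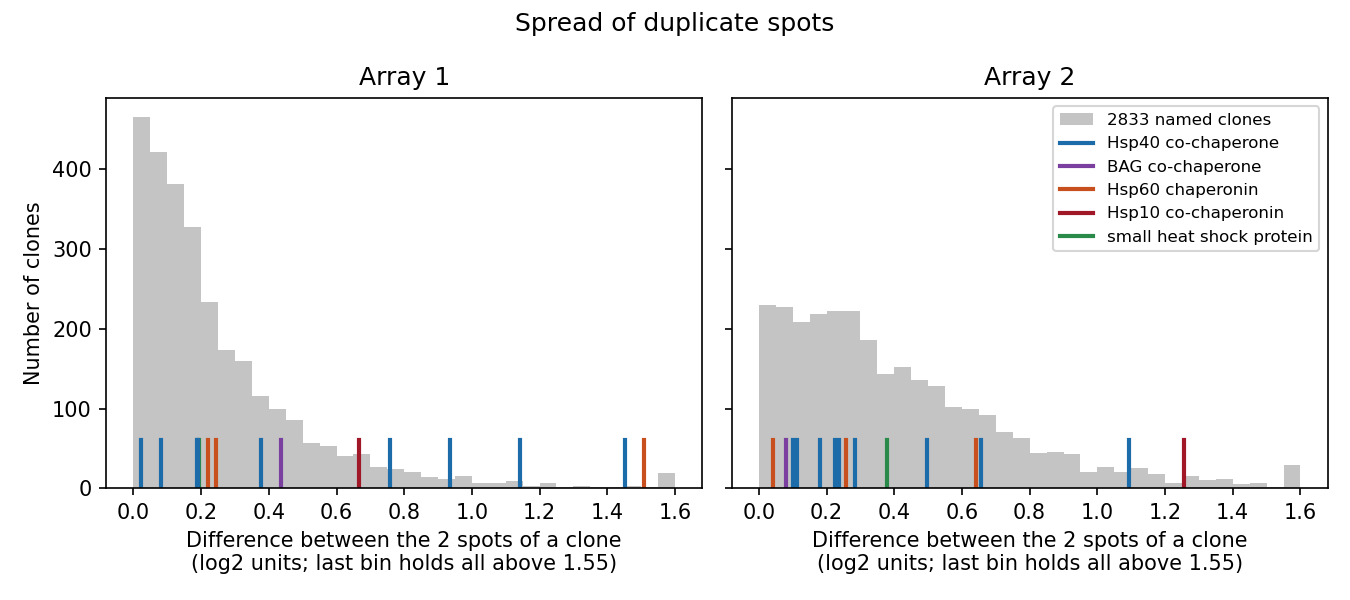
The grey histograms count the 2833 named clones by the difference between their 2 spots (log2 units, horizontal axis) on arrays 1 and 2. Coloured ticks of a fixed height mark the 15 clones of the 7 genes, by role. On array 1 the widest ticks are Hsp60B at 1.51 and a DnaJ-1 clone at 1.45, and on array 2 they are CG9920 at 1.26 and a DnaJ-1 clone at 1.09.

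Among 69 other genes of the chaperone network, 22 were measured. With all clones kept, limma called 0 of the 2377 genes, so it could call none of these 22. Under a common direction 4 were negative on both (24.1% of all genes) and 9 were positive on both (26.6% of all genes). Another 9 had opposite signs (49.3% of all genes). With array 2 turned in sign the counts were 4, 5 and 13, and 50.7% of all genes had opposite signs. Their array 1 median was 0.057 and their array 2 median 0.080, against 0.0089 and 0.010 for all genes. The list was chosen with earlier results of these data known, so its shares are a description and not a test. Of the 22, 5 (22.7%) were 1.5-fold or more on array 1, against 6.14% of all genes, and 0 on array 2, against 4.75%. The 5 were the Hsp70 family genes Hsc70-2 at 1.87, Hsp68 at 1.42 and Hsc70-1 at 1.12, all positive, and CG11267 and the prefoldin subunit gene Pfdn4, both negative at -0.68. On array 1 the Hsp70 genes and CG9920 thus lay on opposite sides of 0.

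Other co-chaperone genes were on that list. DnaJ-H, an Hsp40 gene, was at 0.025 on array 1 and -0.21 on array 2. STUB1, which encodes the ubiquitin ligase CHIP that acts with Hsp70, was at -0.30 and 0.19, and Sgt, a co-chaperone with tetratricopeptide repeats, at -0.25 and 0.16. The Hsp90 co-chaperone gene p23 was at -0.01 and -0.49, the value farthest from 0 among the 22 genes on array 2. None of these 4 reached 1.5-fold on either array.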

How the data were processed

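The authors deposited 1 log ratio, read here as log2, for each of 16896 spots on 2 arrays, with none missing, made from the 2 channels of direct-labelled RNA per the labels' protocols. They are signed and centre on 0, and their background correction, normalization, log base and direction are not stated. Gene symbols came from the platform annotation and were updated through Entrez identifiers, and all 2377 genes matched. Adjacent spots were taken as 1 clone and averaged, then the clones of a gene (2833 clones, 5666 spots). Another 152 spots had several symbols and 11078 had none, and these were not used. The mean of both arrays was tested against 0 with limma 3.58.1 in R 4.3.3 (lmFit, eBayes, Benjamini-Hochberg). The method was checked on shuffled values with shifts added, for bias and for recovery of the largest shift at an unadjusted p. Recovery at the adjusted threshold is not given here, so 0 calls from 2 arrays do not show that no gene changed. No dye term can be fitted to 2 arrays, whose number limits the precision. The named genes are the 7 members, the measured genes of a chaperone list and of the marker lists, and the 3 genes nearest to DnaJ-1. Members, lists, filters and alternatives were chosen with earlier results of these data known.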

Additional observations from a re-analysis of the deposited data

How the results depend on the processing

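Limma called 0 of 2377 genes with array 2 turned in sign, with the arrays centred and scaled, with the median of clones, with robust eBayes, with duplicate spots kept (0 of 2833 clones) and with neighbouring clones subtracted, the last chosen after seeing the data (95 to 211 at an unadjusted p under 0.05). It called 8 genes without clones holding a spot of more than 3 in size, among them CG9920 (limma adjusted p = 0.0025, and 0.19 to 0.996 under the other settings of the gene fit). The CG9920 value itself is unchanged by that filter, while limma's prior degrees of freedom were 76.8 with it and 14.8 without. With array 2 also turned, an added setting, it called 0, and the adjusted p of CG9920 was 0.69. It called 5 genes when only clones with spots within 0.5 of each other were kept, and 3 with array 2 also turned. None of these was among the 5 members tested, and CG9920 and Hsp60B have no clone of this kind. Limma's prior degrees of freedom were infinite in both of these fits, so all genes were given 1 common variance. Genes past 1.5-fold on each array with the same sign numbered 5 after centring and scaling, 1 among concordant clones, 0 at 2-fold and 36 if the values are natural logs. On 1 array alone, with no test, they numbered 113 to 146. The count of members with the same sign, 6 of 7, became 1 with array 2 turned in sign and 3 of 5 among concordant clones, where 781 of 1536 genes had the same sign. Some alternatives for the 7 means were bound to change little. Another log base cannot alter a sign, and the filter on wide spots left all 7 means as they were. A value from 1 array always lies within the SD between arrays, so it could not count as moved. The tally is therefore no measure of robustness. Of 62 alternative values, 14 moved by more than the SD between arrays, among them DnaJ-1 (-0.03) and Hsp60C (0.0045) with array 2 turned. In sign, 58 of the 62 were unchanged. The 4 exceptions were stv and CG7409 with array 2 turned (0.04 and 0.06), stv with neighbouring clones subtracted (0.05) and Droj2 on array 2 alone (-0.00067). Their cause was not tested. Ethanol and water RNA are paired within each ratio, so no replicate number was left to fit as a block.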

Other observations

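Other folding genes were measured by 1 or 2 clones each. Of the CCT chaperonin, the ring that folds actin and tubulin in the cytosol, 5 subunit genes were measured: CCT1 was at 0.30 on array 1 and 0.18 on array 2, CCT8 at 0.27 and 0.083, CCT2 at 0.037 and -0.10, CCT4 at 0.072 and -0.078, and CCT5 at -0.024 and 0.015. In the endoplasmic reticulum, the lectin chaperone gene Cnx99A (calnexin) was at -0.53 and -0.37, the disulfide isomerase gene ERp60 at 0.53 and 0.15, Pdi at 0.15 and -0.11, the Hsp90 family gene Gp93 at 0.21 and -0.097, and Torsin at 0.46 and 0.077. Cnx99A was on the negative side of both arrays and ERp60 on the positive side, and on array 1 they lay beyond the central 90% of named genes, which ran from -0.49 to 0.51. None of these genes reached 1.5-fold on either array. With all clones kept, limma called 0 of the 2377 genes, and so none of these.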
